A study of Homo sapiens with 3 samples.

Results

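The insulin-like signalling genes GRB10, IGF1R and INSR were examined in the line LNCaP, which came from a lymph node metastasis of a human prostate carcinoma and responds to androgen. Every called ChIP-seq region that overlapped a window around these genes was taken, which gave 280 of the 271889 regions of both lists. Of these, 103 of 71077 were H3K27ac regions and 177 of 200812 were H3K4me1 regions. By locus, GRB10 held 135 regions, IGF1R 115 and INSR 30. The windows, in hg19 and counted from 1, were chr7:50620001-50920000 for GRB10, chr15:99150001-99550000 for IGF1R and chr19:7080001-7330000 for INSR. They reach beyond the genes, whose bounds were known to the nearest 1 kb. GRB10 lies on the minus strand from 50658000 to 50861000, IGF1R on the plus strand from 99193000 to 99508000, and INSR on the minus strand from 7112000 to 7294000.

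The labels name no treatment of the cells, and each mark had 1 library and 1 list of regions. The input library of the same line, made without antibody, was not analysed here. H3K27ac is an acetyl mark of promoters and enhancers in use, and H3K4me1 a methyl mark of enhancers in use or in waiting. With no replicate there is no test and no p-value. The lists hold no read counts, so the depth is unknown, and a stretch without a region cannot be read as a stretch without the mark. Copy number in this rearranged genome was not corrected for. The line was not checked against marker genes, since no expression values were used.

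Insulin and the insulin-like growth factors IGF1 and IGF2 act through related receptor tyrosine kinases. INSR encodes the insulin receptor and IGF1R the type I IGF receptor, and both signal through IRS adaptors to PI3-kinase and AKT. GRB10 encodes an adaptor with an SH2 domain that binds the activated receptors and dampens their signal. GRB10 is also an imprinted gene, in human read from both parental copies in most tissues and from a single parental copy in some, such as brain and placenta.

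The stretches before the 3 gene starts are shown because the marks differed there. Taken at the hg19 gene bounds, known to 1 kb, H3K4me1 regions lay over all 3 starts and an H3K27ac region over 1. The RefSeq starts below were not placed on hg19 and may differ from these bounds, so which regions lie over them is not known. They are the 250 bases before the outermost start of each gene in RefSeq, in GRCh38.p14 and not hg19, read 5′ to 3′ along the gene, at chr7:50793454-50793703 (minus), chr15:98648289-98648538 (plus) and chr19:7294415-7294664 (minus). Capitals mark the GC box GGGCGG on either strand, and adjoining matches may share letters.

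GRB10: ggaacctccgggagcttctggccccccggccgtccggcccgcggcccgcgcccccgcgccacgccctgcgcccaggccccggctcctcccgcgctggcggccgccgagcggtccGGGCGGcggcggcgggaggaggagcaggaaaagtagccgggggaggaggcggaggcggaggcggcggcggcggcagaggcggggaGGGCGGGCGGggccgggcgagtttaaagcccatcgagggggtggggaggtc
IGF1R: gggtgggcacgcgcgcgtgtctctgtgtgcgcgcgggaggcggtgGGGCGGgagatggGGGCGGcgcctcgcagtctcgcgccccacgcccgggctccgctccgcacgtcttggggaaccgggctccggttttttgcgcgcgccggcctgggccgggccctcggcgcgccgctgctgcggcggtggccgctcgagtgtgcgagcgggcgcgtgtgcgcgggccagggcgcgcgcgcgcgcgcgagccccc
INSR: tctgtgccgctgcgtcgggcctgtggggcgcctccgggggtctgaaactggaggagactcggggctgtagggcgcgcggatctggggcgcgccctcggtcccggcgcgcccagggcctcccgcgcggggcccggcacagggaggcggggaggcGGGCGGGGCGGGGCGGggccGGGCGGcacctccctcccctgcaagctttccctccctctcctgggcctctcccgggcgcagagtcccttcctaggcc

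All of them were rich in CpG. GRB10 held 37 CpG dinucleotides in 250 bases, IGF1R 48 and INSR 28, against a median of 11 over 35116 RefSeq promoters of this length. Fewer CpG than in these genes were found in 96.0% of promoters for GRB10, 99.7% for IGF1R and 84.1% for INSR. The GC box matched 3 times in GRB10, 2 times in IGF1R and 4 times in INSR, and at least 1 match was held by 42.6% of all promoters. No match in any of these 3 was found, on either strand, for the TATA box TATAAA (10.7% of promoters), the CCAAT box CCAAT (32.0%), the androgen receptor hexamer AGAACA (12.4%) or the forkhead core TGTTTAC (2.98%). RefSeq lists 5 starts for GRB10 and 1 each for IGF1R and INSR. The second GRB10 start, 0.579 kb further on, had 40 CpG and 3 GC box matches. The third start had 19 CpG, no GC box match and 1 CCAAT box match. The fourth had 2 CpG and no match to any of these motifs, and the fifth had 3 CpG, no GC box match and 2 TATA box matches.

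The marks at the 3 loci differed in extent. Both marks were most extensive at GRB10, IGF1R carried separate blocks inside the gene, and INSR carried a few scattered regions. H3K27ac covered 45.2% of the GRB10 window, 19.5% of the IGF1R window and 4.86% of the INSR window, against 4.65% of all chromosome spans. H3K4me1 covered 59.5%, 41.3% and 12.54% of the same windows, against 9.45% of all spans. Relative to all spans, the H3K27ac share was 9.73-fold at GRB10, 4.195-fold at IGF1R and 1.05-fold at INSR, and the H3K4me1 share was 6.29-fold, 4.37-fold and 1.33-fold. INSR lies on a chromosome dense in both marks, and its window held less than the 7.05% H3K27ac and 16.2% H3K4me1 of the whole of chromosome 19. The genes were chosen by earlier results on these lists, GRB10 on the length of its H3K27ac cluster with the receptor genes taken beside it, so these lengths are a description and support nothing further.

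**Figure D1:**
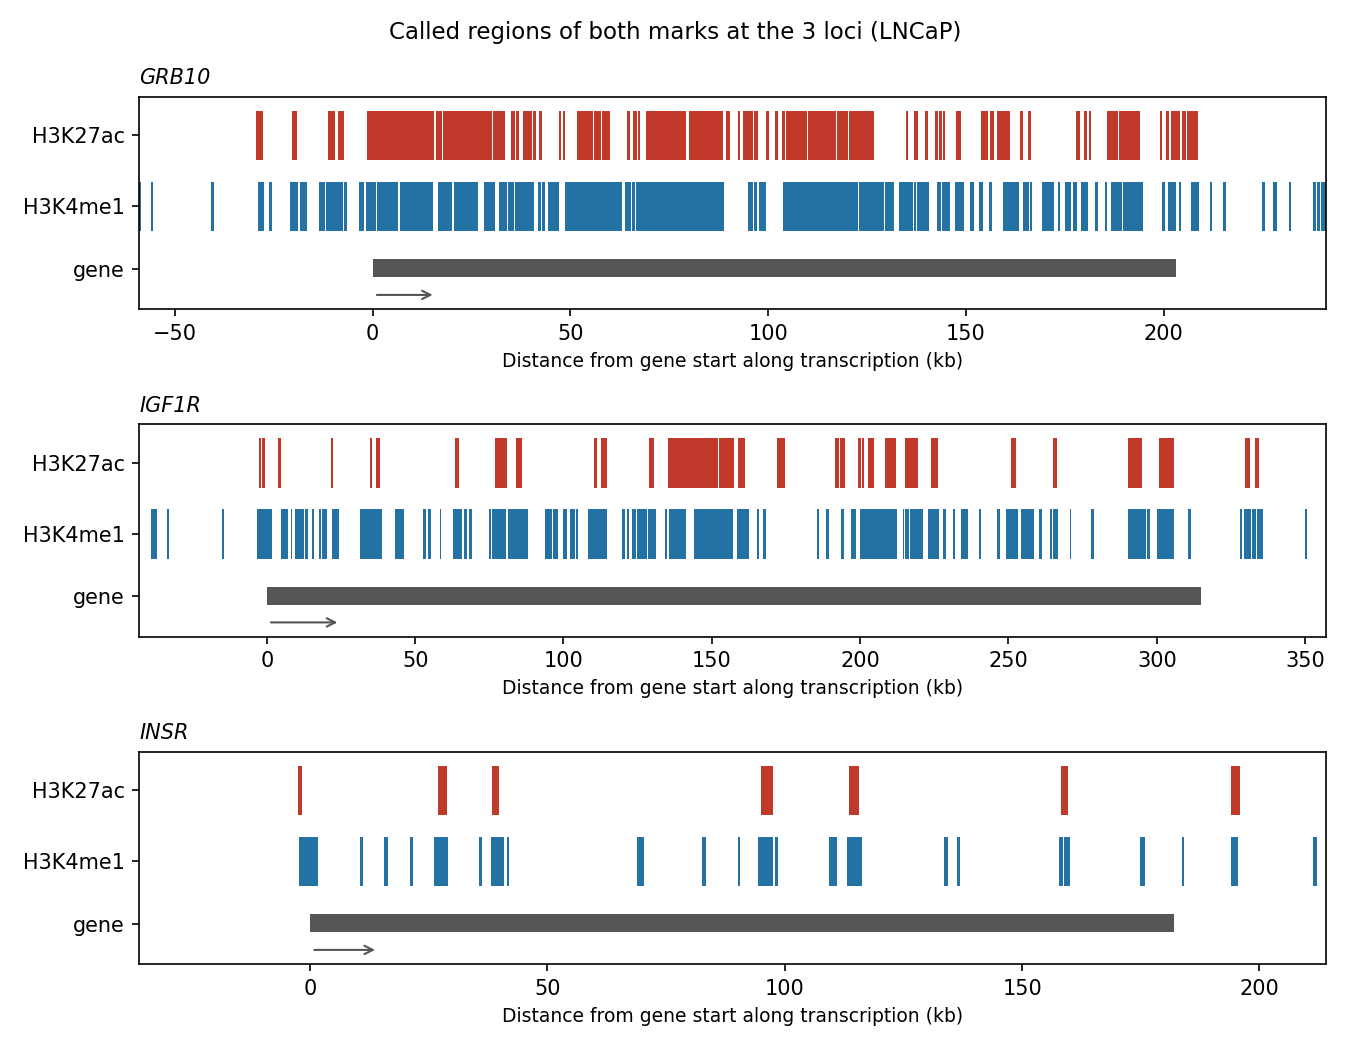
Called regions of H3K27ac (red) and H3K4me1 (blue) at GRB10, IGF1R and INSR, by distance in kb from the gene start along transcription. The grey bar is the gene and the arrow its direction. GRB10 carries closely spaced regions from 1.4 kb before its start, IGF1R its broadest block from 135.3 to 157.65 kb, and INSR 7 separate H3K27ac regions.

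**Figure D2:**
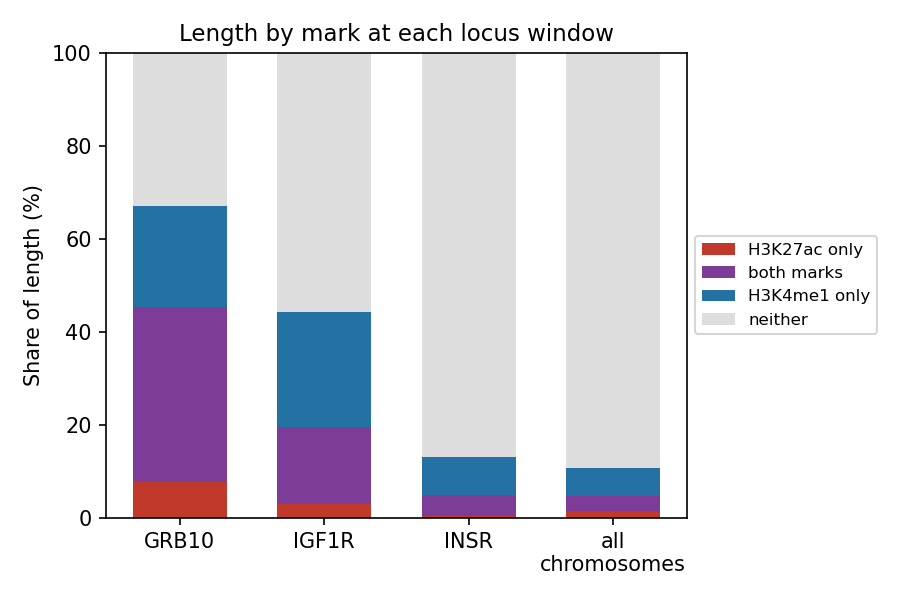
Share of length (%) in H3K27ac alone, both marks, H3K4me1 alone and neither, for each locus window and for all chromosome spans. Neither mark was called over 32.9% of the GRB10 window, 55.7% of the IGF1R window and 87.0% of the INSR window, against 89.2% of all spans.

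Fixed tiles of the same length as each window give these values a scale. Of 9351 tiles of 300 kb that held a region, 9 (0.0962%) had at least the 135.7 kb of H3K27ac of the GRB10 window and 4 (0.0428%) at least its 178.5 kb of H3K4me1. Of 7095 tiles of 400 kb, 125 (1.76%) matched or passed the 78.0 kb of H3K27ac at IGF1R and 63 (0.888%) its 165.2 kb of H3K4me1. For INSR, 38.8% of 11129 tiles of 250 kb had at least its 12.15 kb of H3K27ac and 32.2% at least its 31.35 kb of H3K4me1. The windows were laid around the genes and the tiles were not, which favours the windows.

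At IGF1R, the receptor for IGF1 and IGF2, the gene body was covered over 23.3% by H3K27ac and over 48.0% by H3K4me1. The flanks held less, with 3.95% and 15.3% in the 43 kb upstream and 6.79% and 17.5% in the 42 kb downstream. The 32 H3K27ac regions, of which 28 lay inside the gene, joined into 9 clusters when regions no more than 12500 bp apart were linked. The longest ran from 99322001 to 99367650, 129 to 174.65 kb into the gene, with 6 regions covering 28.8 kb, and ranked 289 of 37027 clusters by covered length. It held the 3 widest H3K27ac regions of the locus, of 7.35, 9.5 and 5.35 kb, which followed each other from 135.3 to 157.65 kb almost without a gap. The 13.3 kb H3K4me1 region at 99336851-99350150, the widest at this locus, lay inside them over 99.2% of its length. The next clusters were smaller, with 17.1 kb at 191.6 to 226.4 kb and 9.70 kb at 290.15 to 305.75 kb, the last near the 3′ end of the gene.

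H3K4me1 was laid out more evenly along IGF1R than H3K27ac. In 10 equal segments of the gene, H3K27ac coverage was 5.40% and 6.19% in the opening 2, reached 75.2% in the fifth and 46.7% in the seventh, and was 6.51% in the ninth. H3K4me1 coverage was 45.4% and 41.1% in the opening 2, 78.3% in the fifth, 66.2% in the seventh and 20.8% at its lowest, in the sixth. The longest stretch of the gene without H3K27ac, 25.25 kb at 38.05 to 63.3 kb, held 7 H3K4me1 regions. The longest stretch without H3K4me1, 17.2 kb at 168.2 to 185.4 kb, held 1 H3K27ac region. That region, 2.55 kb wide at 99365101-99367650 and with a score of 0.007, was the widest H3K27ac region of the locus that met no H3K4me1. The widest H3K4me1 region without H3K27ac spanned 4.35 kb at 99447151-99451500.

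At INSR, the insulin receptor gene, 7 H3K27ac regions were called, of which 5 lay inside the gene. They were 0.85 to 2.55 kb wide and covered 5.14% of the gene body, against 14.4% for H3K4me1. The widest, 2.55 kb at 7196501-7199050, lay 94.95 to 97.5 kb into the gene, and the others inside it were centred about 27.9, 39.0, 114.55 and 158.9 kb from the start. Each of the 7 overlapped H3K4me1 and 3 lay wholly within it. No H3K27ac region was called in the opening 18.2 kb of INSR, nor over 55.25 kb from 39.7 to 94.95 kb, where 6 H3K4me1 regions lay. The 23 H3K4me1 regions were narrow, with a median width of 850 bp against 1050 bp over the list. Of them 15 (65.2%) met no H3K27ac, much as in the list (65.5%). The lowest H3K27ac score of the locus, 0.001, belonged to the 1.95 kb region at 7098101-7100050, which begins 11.95 kb past the end of INSR, on the side where ZNF557 is the next protein-coding gene in RefSeq. No region of either list lay between 7296600 and the upstream edge of the window, and the nearest H3K27ac region beyond that edge was 125.25 kb from it.

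At GRB10, the gene of the inhibitory adaptor, 64 H3K27ac and 71 H3K4me1 regions were called. H3K27ac covered 60.4% of the gene body, against 13.6% of the 59 kb upstream and 13.4% of the 38 kb downstream. H3K4me1 covered 74.7% of the gene body, 29.3% upstream and 25.3% downstream. Both marks lay together over 50.7% of the gene and neither over 15.6%. The high level was not confined to the outermost start, since beyond 20 kb from it H3K27ac still covered 56.6% and H3K4me1 73.0%. That stretch is not free of starts, as RefSeq lists further GRB10 starts 61.1 and 88.152 kb downstream of the outermost one in GRCh38.p14. Whether the marks there belong to these starts was not tested. All 64 H3K27ac regions joined into 1 cluster of 238.25 kb at chr7:50652201-50890450, from 29.45 kb before the start to 5.8 kb past the end of the gene. The list placed no further H3K27ac region in the window.

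Broad regions of GRB10 lay close together in 3 parts of the gene. The 16.8 kb H3K27ac region at 50845601-50862400 began 1.4 kb before the start and ended 15.4 kb inside. In the same part, 19.75 to 28.2 kb inside, a region of 8.45 kb at 50832801-50841250 carried the lowest score of the locus, 0.001. The second part, 69.1 to 88.65 kb inside, held regions of 10.2 and 8.65 kb, most of their length within a 21.35 kb H3K4me1 region at 50773101-50794450. The third part, 104.55 to 126.65 kb inside, held regions of 5.25, 7.05 and 6.25 kb and 2 narrower ones, most of their length within a 19.0 kb H3K4me1 region at 50738351-50757350. Apart from these, a 5.35 kb H3K27ac region lay at 50666951-50672300, 188.7 to 194.05 kb inside, and a 4.05 kb region at 50805301-50809350, 51.65 to 55.7 kb inside. The 21.35 and 19.0 kb H3K4me1 regions were the widest of the locus and stood 50th and 80th by width among 200812.

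H3K27ac thinned out along GRB10. It covered 72.9% of the 101.5 kb nearest the start and 47.9% of the remaining 101.5 kb, and H3K4me1 covered 81.4% and 68.0%. Over 10 equal segments, H3K27ac covered 95.6% of the first, 52.2% of the third, 87.2% of the sixth, 19.2% of the ninth and 52.2% of the last. H3K4me1 was highest in the fourth segment at 94.6% and lowest in the eighth at 54.7%. The longest stretch of the gene without H3K27ac, 11.45 kb at 166.35 to 177.8 kb, held 5 H3K4me1 regions. The longest without H3K4me1, 5.90 kb at 88.9 to 94.8 kb, held 3 H3K27ac regions.

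**Figure D3:**
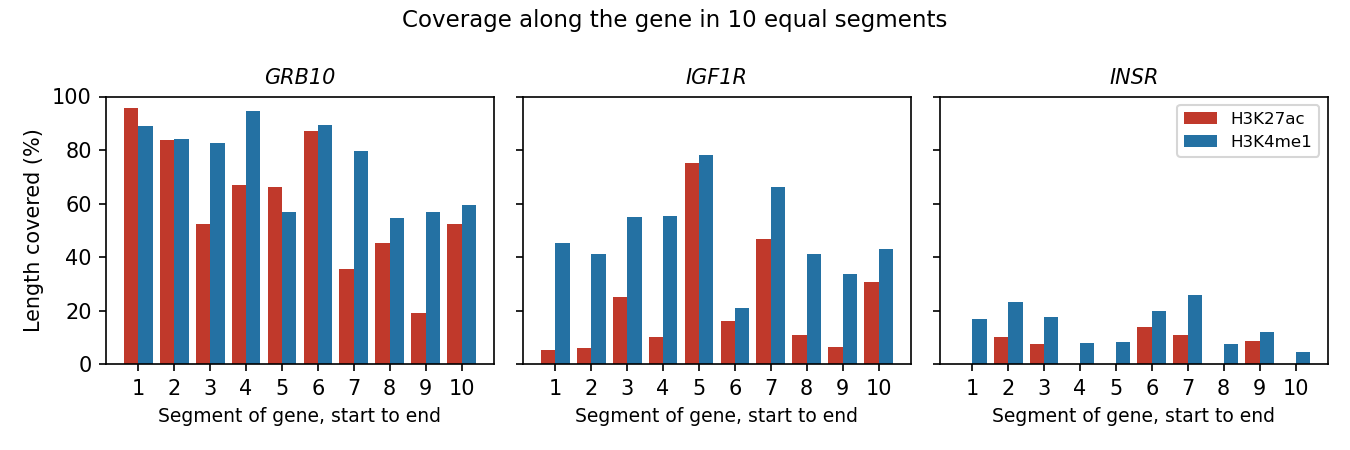
Length covered (%) by H3K27ac (red) and H3K4me1 (blue) in each of 10 equal segments of the gene, from its start to its end, for GRB10, IGF1R and INSR. H3K27ac covers 95.6% of the opening segment of GRB10, 5.40% of that of IGF1R and none of that of INSR, and peaks in the fifth segment of IGF1R at 75.2%.

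Taken at the hg19 gene bounds, the 3 gene starts differed in H3K27ac and were alike in lying within H3K4me1. The GRB10 start lay in the 16.8 kb H3K27ac region and in a 2.65 kb H3K4me1 region at 50860051-50862700. At IGF1R the nearest H3K27ac region, 1.15 kb at 99191301-99192450, ended 0.55 kb before the start, and the next began 3.65 kb after it. A 4.95 kb H3K4me1 region at 99189851-99194800 spanned the IGF1R start. At INSR a 0.85 kb H3K27ac region at 7295751-7296600 ended 1.75 kb before the start, the next began 26.95 kb after it, and a 3.95 kb H3K4me1 region at 7292401-7296350 spanned the start. Over the 5 kb to either side of the start, H3K27ac covered 64.0% at GRB10, 27.5% at IGF1R and 8.50% at INSR, and H3K4me1 78.5%, 52.5% and 39.5%. Starts known to 1 kb leave the 0.55 kb at IGF1R close to the rounding. The RefSeq start of IGF1R was not placed on hg19, so whether H3K27ac lies over it is not settled here.

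H3K27ac regions of the 3 loci mostly met H3K4me1, much as in the whole list. At GRB10 56 of 64 did (87.5%, exact Clopper-Pearson 95% interval 76.8% to 94.4%), at IGF1R 29 of 32 (90.6%, 74.98% to 98.02%) and at INSR 7 of 7 (lower bound 59.0%), against 83.1% over all H3K27ac regions. H3K27ac regions wholly inside H3K4me1 numbered 23 of 64 at GRB10, 14 of 32 at IGF1R and 3 of 7 at INSR, against 33.1% over the list. By length, 83.2% of the H3K27ac at GRB10, 84.8% at IGF1R and 91.4% at INSR lay in H3K4me1 regions, against 71.5% over all chromosomes. Over the whole of chromosomes 7, 15 and 19 this share was 71.9%, 76.6% and 86.6%. H3K4me1 also covered more of each window than of all spans, and the shares were not corrected for it. The 8 GRB10 regions with H3K27ac alone were 550 to 950 bp wide, and the 3 of IGF1R 1050 to 2550 bp. The intervals cover counting error only and take regions as independent, which neighbours are not.

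The reverse share was highest at GRB10. H3K4me1 regions that met H3K27ac numbered 49 of 71 at GRB10 (69.0%, interval 56.9% to 79.5%), 30 of 83 at IGF1R (36.1%, 25.9% to 47.4%) and 8 of 23 at INSR (34.8%, 16.4% to 57.3%), against 34.5% over all H3K4me1 regions. GRB10 was chosen on its H3K27ac, which this share uses, so it is given as a description. H3K4me1 regions wholly inside H3K27ac numbered 7 of 71, 3 of 83 and 1 of 23, against 6.88% over the list. Per kb of H3K4me1, the H3K27ac length was 0.760 kb at GRB10, 0.472 kb at IGF1R and 0.388 kb at INSR, against 0.492 kb over all chromosomes. With regions of a score at or below the list median alone, in both lists, the share was 19 of 48 at GRB10 (39.6%, interval 25.8% to 54.7%), 22 of 50 at IGF1R (44.0%, 29.99% to 58.7%) and 3 of 8 at INSR (37.5%, 8.52% to 75.5%), against 41.0% over the list. The list share then lay inside the interval of each locus, which is a description and no test. The limit was uneven, as it kept 14 of 64 H3K27ac regions at GRB10 (21.9%), 21 of 32 at IGF1R and 4 of 7 at INSR. Over the list it kept 58.9%. How far the lower share at GRB10 follows from this was not tested.

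The GRB10 domain was built of many narrow H3K27ac regions. Their median width was 975 bp (quartiles 788 and 1925 bp), with 32 of 64 under 1 kb, against 1650 bp (1238 and 2638 bp) at IGF1R, 1850 bp (1475 and 1975 bp) at INSR and 1600 bp (1050 and 2400 bp) over the list, where 21.7% were under 1 kb. The 9 GRB10 regions of 4 kb or more nevertheless made up 53.1% of the region length. The 6 such regions at IGF1R made up 46.3% there, and such regions 24.4% over the list. H3K4me1 regions at GRB10 were wider than in the list, with medians of 1600 and 1050 bp. Gaps between neighbouring H3K27ac regions inside the gene had a median of 600 bp at GRB10, 4450 bp at IGF1R and 29300 bp at INSR, the last from 4 gaps. Over the list the median was 13600 bp, with gaps between genes included. GRB10 was chosen on a cluster whose gaps cannot pass 12500 bp, so its short gaps follow from the choice and are a description. Of 39 gaps of at most 1 kb in the GRB10 window, 24 (61.5%, interval 44.6% to 76.6%) were filled end to end by H3K4me1, against 54.7% of 6735 such gaps in the list. IGF1R had 6 such gaps, of which 4 were filled, and INSR had none.

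**Figure D4:**
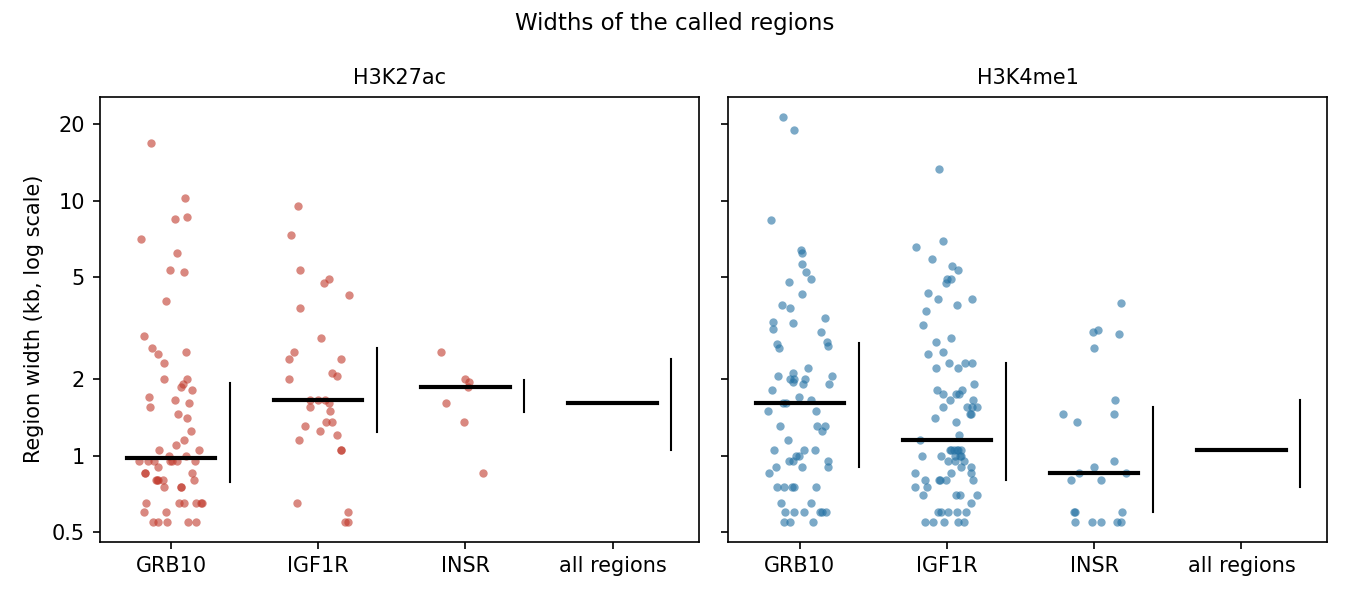
Width of each region (kb, log scale) of H3K27ac and H3K4me1 at GRB10, IGF1R and INSR, with the median as a thick bar and the quartiles as a thin line, and the median and quartiles of the whole list at the right. The GRB10 H3K27ac median, 975 bp, sits below the list median of 1600 bp, while its widest region reaches 16.8 kb.

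The authors' score for each region, which is unnamed and here read as more stringent when low, was high over much of GRB10. It was at or below the H3K27ac list median of 0.009 in 14 of 64 GRB10 regions (21.9%, interval 12.51% to 34.0%), in 21 of 32 IGF1R regions (65.6%, 46.8% to 81.4%) and in 4 of 7 INSR regions, against 58.9% of the list. For H3K4me1 the order of the loci was another, with a score at or below the list median of 0.008 in 48 of 71 GRB10 regions (67.6%, 55.5% to 78.2%), 50 of 83 IGF1R regions (60.2%, 48.9% to 70.8%) and 8 of 23 INSR regions (34.8%, 16.4% to 57.3%), against 50.6% of the list. Keeping H3K27ac regions at or below the median score split the GRB10 cluster into 6, the longest with 35.15 kb of H3K27ac in 6 regions at 50805301-50872400, rank 111 of 26672. The longest IGF1R cluster kept all its 28.8 kb under this limit and stood at rank 179.

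Width and score parted in 2 of the broadest GRB10 regions, a comparison made after their values were seen. The 10.2 and 8.65 kb regions at 69.1 to 88.65 kb both had a score of 0.009, although the 16.8 kb region at the start had 0.002 and the 8.45 kb region 0.001. Among all 825 H3K27ac regions of 8 kb or more, 13 (1.58%) had a score of 0.009 or more. At IGF1R the 6 regions of 4 kb or more had scores of 0.001 to 0.002.

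The GRB10 cluster was set beside the other 14 of the 15 longest H3K27ac clusters, all given as description. It ranked 8 by covered length, 2 by number of regions, with 64 against 13 to 65 in the others, and 14 by the width of its widest region, with 16.8 kb against 14.3 to 121.65 kb. Its median region width, 975 bp, was below the 1100 to 3950 bp of the others. The share of its regions with a score at or below the list median, 21.9%, was below the 23.1% to 53.8% of the others. H3K27ac filled 57.0% of its span, against 48.9% to 95.8%. H3K4me1 covered 83.2% of its H3K27ac, the fifth highest of the 15, against 23.2% to 96.2% in the others. The cluster at chr9:79234451-79532050 came close in several measures, with 65 regions, a median width of 1100 bp, 23.1% at or below the median score and 59.7% filled. It differed in its widest region, 36.9 kb, and in H3K4me1, over 62.0% of its H3K27ac. The share at or below the median score had a median of 42.4% in the other 14, against 58.9% of the list.

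The windows cut through few regions. At GRB10 an H3K4me1 region of 3.3 kb crossed the downstream edge and another of 0.6 kb the upstream edge. Both were counted as members and clipped to the window in the covered lengths. Just outside the upstream edge, 0.8 kb away, lay a 7.25 kb H3K4me1 region with a 1.55 kb H3K27ac region in it. At IGF1R the nearest regions outside were a 1.55 kb H3K4me1 region 8.7 kb before the window and a 2.75 kb H3K4me1 region 7.05 kb after it, which held a 1.80 kb H3K27ac region. At INSR an H3K4me1 region of 1 kb lay 5.25 kb beyond the downstream edge and an H3K27ac region of 1.65 kb lay 9.4 kb beyond it.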

How the data were processed

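Single-end reads of 50 bp were sequenced on an Illumina HiSeq 2000, per the labels' protocols, and the submitters' processing notes list Bowtie 0.12.8 and the build hg19. Neither the region caller nor its threshold nor any use of the input is given in the sources used here. The authors deposited 1 list per mark, with a chromosome, start, end and unnamed score per region, on a grid of 50 bp and without a header. The deposited start and end positions were read as BED and are printed counted from 1. A low score was taken as the more stringent, and scores were compared only within a list. Depth is unknown.

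Mitochondrial regions were left out. Window and gene bounds in hg19 came from the definition of the loci. An overlap needed 1 bp, and neighbouring H3K27ac regions were joined up to 12500 bp apart. Intervals are exact Clopper-Pearson, 95%. The interval functions were tested on simulated data. Members, lists and measures were chosen with earlier results of these data known. Named regions were those at the gene starts, the 3 widest per mark and locus, the widest with 1 mark, the longest stretches without a mark and those at the window edges. Further regions were named after their values were seen. No hg19 annotation was used, so other genes of the pathway and genes of like pattern were not analysed here. Promoter sequences are from RefSeq, GRCh38.p14, with 7 entries matched for the 3 genes. No coordinates were converted. Tools were Python 3.11.15 with scipy 1.17.1, pandas 2.3.3, numpy 2.4.6 and, for figures, matplotlib 3.10.9.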

Additional observations from a re-analysis of the deposited data

How the results depend on the processing

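A share of regions was taken to move when it left the exact interval of its main value, and any other value when it changed by over 1.5-fold. Of 84 alternative values under 8 settings, 10 moved and 74 did not. This count is no measure of robustness, since some values could not move or could hardly do so. The INSR intervals rest on 7 H3K27ac and 23 H3K4me1 regions and are wide. There, a change from 100% to 75% and one from 34.8% to 53.3% did not count as moved. At scores at or below the list median, the share of H3K27ac regions over H3K4me1 at GRB10 was 100% (14 of 14, lower bound 76.8%). Over the list at this limit it was 84.6%, inside that interval. The share of H3K4me1 regions over H3K27ac at GRB10 was 39.6%, against 41.0% over the list. H3K27ac then covered 27.1% of the GRB10 window, its longest cluster held 35.15 kb, and H3K4me1 covered 8.08% of the INSR window. With an overlap of at least 50%, the GRB10 shares were 70.3% for H3K27ac and 45.1% for H3K4me1, and the IGF1R share for H3K4me1 was 22.9%. In the gene body, 86.0% of GRB10 H3K4me1 regions met H3K27ac. No share over all regions is given for the 50% overlap or for gene bodies. The list shares at 1 bp are therefore no scale for these values. With tiles offset by 150 kb, 0.0748% of tiles held at least as much H3K4me1 as the GRB10 window, against 0.0428% (4 of 9351) in the main tiles. With so few tiles, a small change in their number can pass 1.5-fold. The cause of this change was not tested. Merging regions within 1 kb and an H3K4me1 score under 0.05 moved none, though the H3K4me1 limit cannot alter H3K27ac coverage. The order GRB10, IGF1R, INSR by H3K27ac share of the window held at scores at or below the median, with 27.1%, 16.8% and 3.34%. No paired analysis was possible because the lists have no replicates. Depth is unknown, which limits what an uncalled stretch can mean.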
